A study of Mus musculus with 6 samples.

Results

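The 10 main apolipoprotein genes of the liver, Apoa1, Apoa2, Apoa4, Apoa5, Apob, Apoc1, Apoc2, Apoc3, Apoe and Apom, were followed in hepatocytes of mice with induced miR-143. They were chosen by name out of 20416 genes on the array, and a gene's value was the mean log2 intensity of the probe sets whose platform annotation names that gene alone. The comparison was between 2 groups of 3 adult C57BL/6 mice: mice transgenic for a doxycycline-inducible miR-143 allele (miR-143DOX) and wildtype littermates (control). For 8 days the drinking water of all 6 animals held 4 mg/ml doxycycline in 10% sucrose, which the wildtype mice thus shared. Hepatocytes were isolated by liver perfusion with collagenase and frozen, and RNA of each mouse was read on 1 Affymetrix array, so the 3 values of a group are separate animals. Neither the promoter behind the transgene nor the level of miR-143 was analysed here.

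Apolipoproteins are the proteins that package lipids for transport in blood. Apolipoprotein B is the scaffold of very-low-density lipoprotein, the triglyceride-rich particle that hepatocytes secrete, and stays with its particle until uptake, while the small apolipoproteins move between particles. Apolipoproteins A-I and A-II are the structural proteins of high-density lipoprotein (HDL), C-II and A-V aid lipoprotein lipase, C-I and C-III act against triglyceride clearance, E is a ligand for hepatic uptake, and M is a lipocalin that carries sphingosine 1-phosphate in HDL.

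Of the 10 genes, Apom, Apoc2, Apoa1 and Apoc3 lay lower in the miR-143DOX mice with no overlap between the groups, and none lay higher without overlap. Apoa2 did lie higher without overlap in 3 of the 16 other settings that kept it, with the median over probe sets and without miR-143DOX replicate 1 or control replicate 1. Over all 15312 genes tested, 3.73% lay lower without overlap between the groups. No member passed a 5% false discovery rate (FDR) in limma's moderated test with Benjamini-Hochberg adjustment over all genes, where 0.0% of all genes passed (lowest adjusted p = 0.735) and 469 had an unadjusted p under 0.05. That fit gave such a p for 1 of 10 members, Apom, which lay lower, against 1.68% of all genes lower and 3.06% in either direction. The differences of the members, miR-143DOX minus control, had a median of -0.12 on the log2 scale, with 6 below 0 and 4 above 0, against a median of 0.0083 and 47.6% below 0 over all genes tested. This balance depended on how the probe sets of a gene were summarised: with their median, 4 members lay below and 6 above 0, with a median of 0.025, and with the brightest probe set 3 lay below and 7 above 0, with a median of 0.02. All 10 passed the filter on dim genes. On the deposited values without further normalization, and with arrays centred on their medians, only Apom and Apoc3 of the members stayed without overlap, and 7 members lay below 0.

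**Figure D1:**
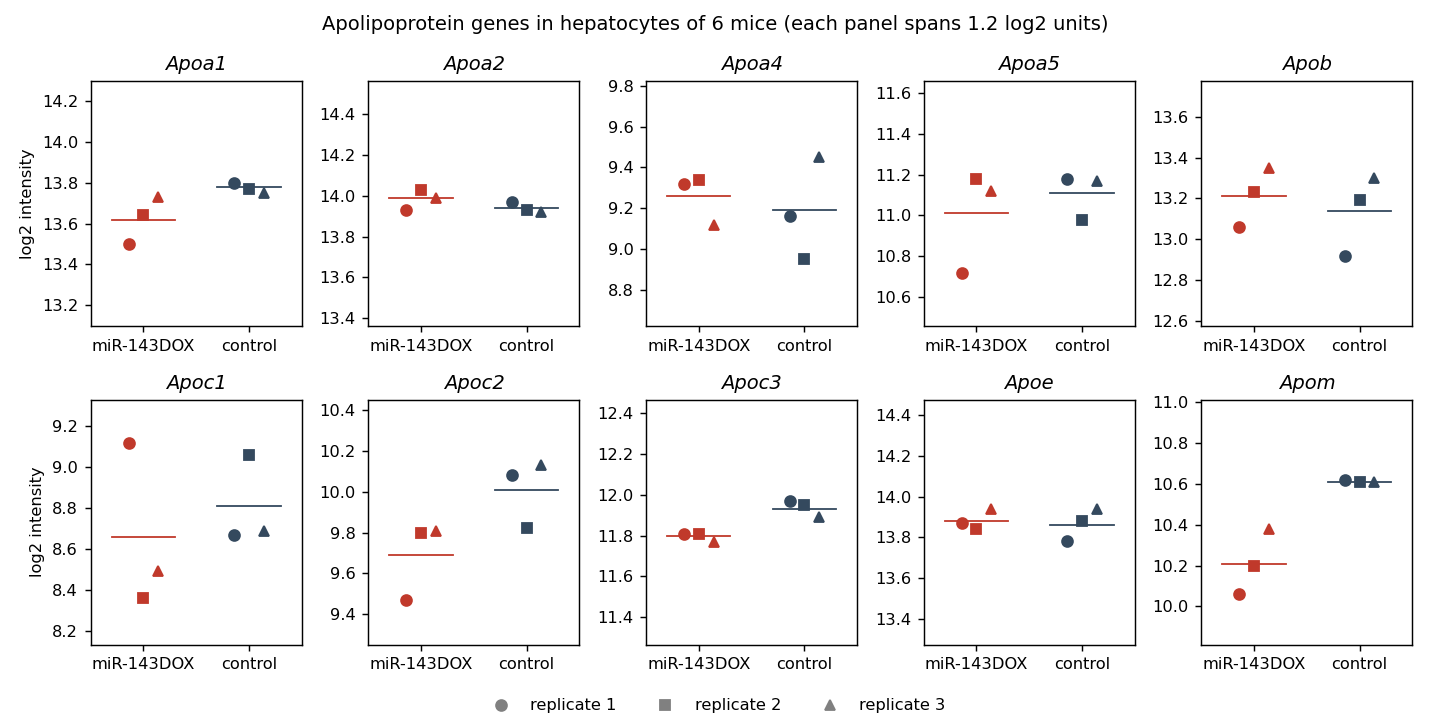
Log2 intensity of the 10 apolipoprotein genes in hepatocytes of 3 miR-143DOX mice (left) and 3 control mice (right), with 1 point per mouse, a marker shape per replicate number and a line at the group mean. The panels share the same span but not the same level. Apom has the widest gap between the groups, and Apoa2, Apoa4, Apoa5, Apob, Apoc1 and Apoe overlap.

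The labelled cell type was checked on 15 hepatocyte markers, which had mean levels of log2 6.52 to 14.39, with Alb, the gene of albumin, at 14.41 in miR-143DOX and 14.37 in control. Between arrays, Pearson's r over the probe sets was 0.936 to 0.954. The hepatocyte marker with the lowest difference was Serpina1a, for an alpha-1 antitrypsin, at -0.98, and the median of the 15 was 0.0058. Sums of the linear intensities of the hepatocyte markers were 151000 to 152000 in miR-143DOX arrays and 143000 to 162000 in control arrays. Kupffer cell markers, for the liver's resident macrophages, which also make apolipoprotein E, summed to 2440 to 3280 in miR-143DOX and 2620 to 2860 in control over 16 genes. Markers of sinusoidal endothelium summed to 2490 to 3400 in miR-143DOX and 3130 to 3400 in control over 15 genes, of which 12 lay below 0, with a median difference of -0.11 and the lowest, -0.37, at Clec4g. This median is close to that of the 10 members. Markers of stellate cells and fibroblasts summed to 1890 to 2500 in miR-143DOX and 2020 to 2280 in control over 14 genes. Markers of cholangiocytes (416 to 474 in miR-143DOX, 425 to 481 in control), lymphocytes (365 to 393 in miR-143DOX, 347 to 374 in control) and neutrophils and monocytes (271 to 302 in miR-143DOX, 264 to 288 in control) overlapped in their sums. So did those of enterocytes (1280 to 1480 in miR-143DOX, 1300 to 1370 in control) and erythroid cells (642 to 814 in miR-143DOX, 582 to 791 in control). Under the filter on dim genes lay 3 of 9 cholangiocyte, 6 of 11 lymphocyte and 8 of 11 neutrophil and monocyte markers. The same held for 3 of 10 enterocyte and 1 of 3 erythroid markers. Among the erythroid markers Alas2 was the brightest, at 9.36 in miR-143DOX and 9.29 in control. These sums therefore say little about the share of such cells. The part of other cells in the values below was not tested. A lower share of cells that express a gene and less of its RNA per cell cannot be told apart in these bulk samples.

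Apom, the gene of the sphingosine 1-phosphate carrier of HDL, had the lowest difference of the 10. Its log2 intensity was 10.06, 10.20 and 10.38 in miR-143DOX replicates 1, 2 and 3, against 10.62, 10.61 and 10.61 in control replicates 1, 2 and 3. All 3 miR-143DOX mice lay below all 3 control mice, by at least 0.228, and miR-143DOX replicate 1 was the lowest. The means were 10.21 ± 0.16 in miR-143DOX and 10.61 ± 0.0037 in control (SD, n = 3 each), a difference of -0.40 with a standard error of 0.13 and a 95% interval of -0.70 to -0.11. On the linear scale miR-143DOX stood at 75.7% of control (61.7% to 92.9%). Limma gave an unadjusted p of 0.0119 and an adjusted p of 1, so the difference did not pass over all genes. A difference larger in size was found for 2.4% of all genes tested.

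The 6 probe sets of Apom lay on the same side, with differences of -0.57 to -0.29, and 5 of the 6 did not overlap between the groups. Over all 234873 probe sets, 4.57% lay lower in miR-143DOX without overlap. An unadjusted p under 0.05 was reached by 1 of the 6, against 2.28% of all probe sets lower. In the probe set with the lowest difference, miR-143DOX replicates 1, 2 and 3 had 10.11, 10.24 and 10.56, against 10.82, 10.80 and 10.99 in the control replicates. The exception was a probe set with 9.47, 9.67 and 9.92 in miR-143DOX and 10.14, 10.23 and 9.85 in control, where miR-143DOX replicate 3 lay above control replicate 3. With each probe set of Apom left out in turn the difference stayed between -0.42 and -0.37, so it did not rest on 1 of them. Probe sets of a gene share the RNA and the array and are not independent replicates.

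**Figure D2:**
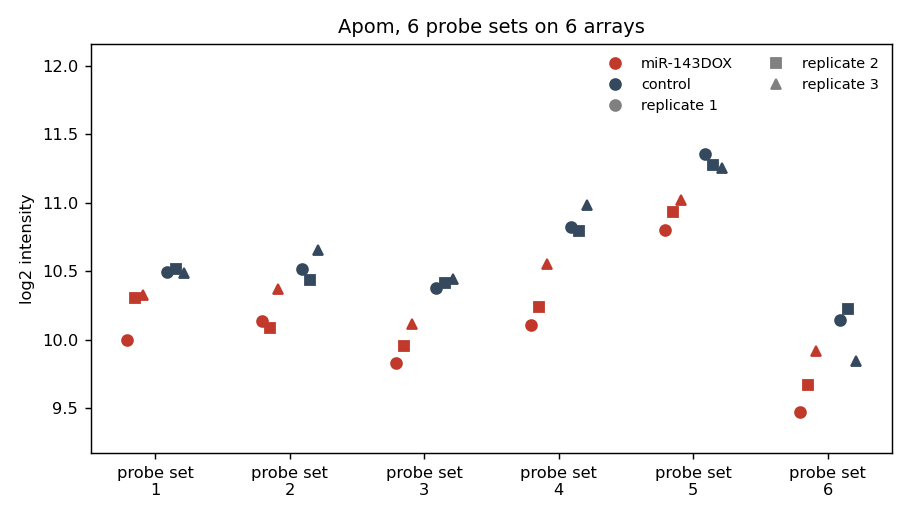
Log2 intensity of the 6 probe sets of Apom, numbered in the order of their platform identifiers, in miR-143DOX mice (left of each pair) and control mice (right), with 1 point per mouse and a marker shape per replicate. In 5 of the 6 all miR-143DOX points lie below all control points.

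Promoter sequences are shown for Apom, Apoc2 and Apoa1, the members without overlap between the groups that have an entry in the RefSeq promoter table of build GRCm38.p6; Apoc3 and Apoc1 have none there. Each line gives the 250 bases before the annotated start, 5′ to 3′ on the strand of the gene. Many liver genes are bound by nuclear receptors such as HNF4A, which recognise direct repeats of the half-site AGGTCA. Capitals mark the stretch closest to a pair of these half-sites with 1 base between them, searched on both strands and scored by mismatches at the 12 fixed bases.
Apom, chr17:35131802-35132051, minus strand: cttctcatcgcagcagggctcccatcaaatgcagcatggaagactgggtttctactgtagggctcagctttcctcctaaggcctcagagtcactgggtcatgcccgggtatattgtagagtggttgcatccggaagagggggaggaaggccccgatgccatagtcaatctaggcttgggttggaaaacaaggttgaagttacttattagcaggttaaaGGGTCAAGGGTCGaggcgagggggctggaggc
Apoc2, chr7:19677942-19678191, minus strand: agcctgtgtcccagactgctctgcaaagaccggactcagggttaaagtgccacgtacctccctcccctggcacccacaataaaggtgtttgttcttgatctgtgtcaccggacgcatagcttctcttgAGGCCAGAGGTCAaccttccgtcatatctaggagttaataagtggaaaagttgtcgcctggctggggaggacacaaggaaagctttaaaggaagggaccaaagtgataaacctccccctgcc
Apoa1, chr9:46228380-46228629, plus strand: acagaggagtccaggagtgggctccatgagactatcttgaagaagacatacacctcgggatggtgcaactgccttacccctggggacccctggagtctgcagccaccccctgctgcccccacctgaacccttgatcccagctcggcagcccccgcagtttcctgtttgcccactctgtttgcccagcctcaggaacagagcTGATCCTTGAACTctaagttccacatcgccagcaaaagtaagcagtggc

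The stretch in Apoc2 had 1 mismatch and lay 122 to 110 bases before the start, on the strand of the gene. A stretch with at most 1 mismatch was found in 0.484% of the 32851 promoters in the table. Those in Apom, 32 to 20 bases before the start, and in Apoa1, 49 to 37 bases before it on the opposite strand, had 3 mismatches each, and 21.3% of all promoters had a stretch at least as close. Among the members whose groups overlapped, the closest stretch had 2 mismatches in Apoa2 (at most 2 in 3.24% of promoters), 3 in Apoe, and 4 in Apob, Apoa4 and Apoa5 (at most 4 in 74.5%). Apoa2, Apoe and Apoa5 have several promoter entries, and the closest is given, while the shares count each promoter by itself. The entry of Apoa2 with 2 mismatches lies inside the gene, and the entry before the gene had 3. The other entries of Apoe had 5. Such a match is a description of letters, not a site.

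Apoc2, the gene of the cofactor of lipoprotein lipase, measured 9.47, 9.80 and 9.81 in miR-143DOX replicates 1, 2 and 3, against 10.08, 9.82 and 10.13 in control. The groups were separate by only 0.00525, between miR-143DOX replicate 3 and control replicate 2. Its difference was -0.32 with a standard error of 0.15 (95% interval -0.65 to 0.011, limma unadjusted p = 0.057, adjusted p = 1), and miR-143DOX stood at 80.3% of control. The 5 probe sets did not move evenly. One of them had 5.43, 7.30 and 7.38 in miR-143DOX and 7.81, 7.45 and 8.15 in control, a difference of -1.1, while the brightest had 12.42, 12.47 and 12.35 in miR-143DOX and 12.54, 12.33 and 12.34 in control, a difference of 0.0087. Without the first, the difference of the gene was -0.12 and the groups overlapped. Without miR-143DOX replicate 1, the array that was lowest in that probe set, the difference of the gene was -0.21.

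Apoc2 lies on chromosome 7 in a cluster of 4 apolipoprotein genes, Apoc2, Apoc4, Apoc1 and Apoe, over 29.7 kb (chr7:19671579-19701310, GRCm38.p6). Apoc4, a minor apolipoprotein gene beside Apoc2, measured 9.56, 9.54 and 9.50 in miR-143DOX and 9.98, 9.62 and 9.51 in control, a difference of -0.17 (95% interval -0.50 to 0.15). Its groups overlapped, and without control replicate 1 the difference was -0.034. Apoe, the ligand for uptake of remnants, measured 13.87, 13.84 and 13.94 in miR-143DOX and 13.78, 13.88 and 13.94 in control. The groups overlapped, with control replicate 1 the lowest of the 6, at a difference of 0.021 (95% interval -0.26 to 0.30) that turned to -0.008 on the deposited values and with arrays centred on their medians. In linear terms the interval runs from 83.6% to 123% of control.

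Apoc1, the gene of a small apolipoprotein that inhibits lipoprotein uptake, measured 9.12, 8.36 and 8.49 in miR-143DOX and 8.67, 9.06 and 8.69 in control. Its difference of -0.15 (95% interval -0.58 to 0.28) came from the dimmest of 3 probe sets, at 5.11, 3.03 and 4.26 in miR-143DOX against 4.18, 5.62 and 4.52 in control, near the low end of the array. Without it the difference was 0.095. It was also carried by single arrays: leaving out miR-143DOX replicate 1 gave -0.38 with no overlap (limma unadjusted p = 0.0487), and leaving out miR-143DOX replicate 2 gave -0.002. Leaving out control replicate 2 gave -0.024 and leaving out miR-143DOX replicate 3 gave -0.067. Another 2 probe sets are annotated to Apoc1 and Gcc1 together and did not enter the gene's value. They were bright, at 13.02 and 13.34 on average in miR-143DOX and 13.10 and 13.40 in control, with differences of -0.07 and -0.06.

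The 4 genes of the chromosome 9 cluster, Apoa1, Apoc3, Apoa4 and Apoa5, lie within 43.3 kb (chr9:46228630-46271921, GRCm38.p6). Apoa1, for the main protein of HDL, measured 13.50, 13.64 and 13.73 in miR-143DOX and 13.80, 13.77 and 13.75 in control. The 3 miR-143DOX mice lay below the 3 control mice, the closest pair by 0.021. The difference was -0.15 with a standard error of 0.13 (95% interval -0.44 to 0.13, 89.9% of control), and -0.093 without miR-143DOX replicate 1. All 4 probe sets of Apoa1 lay below 0, from -0.21 to -0.099, and 1 of the 4 was separate between the groups. Without that probe set the difference was -0.14 and the groups of Apoa1 overlapped.

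Apoc3, whose protein slows the clearance of triglyceride-rich particles, measured 11.81, 11.81 and 11.77 in miR-143DOX and 11.97, 11.95 and 11.89 in control. These groups were separate by 0.0728, with a difference of -0.14 and a standard error of 0.12 (95% interval -0.41 to 0.14, 91.0% of control). Almost all of it came from 1 of 4 probe sets, at 8.26, 8.11 and 8.36 in miR-143DOX and 8.79, 8.85 and 8.59 in control, a difference of -0.50 (limma unadjusted p = 0.0416 among probe sets). The other 3 differed by -0.026 to -0.0034, and without the first the gene differed by -0.013 and the groups overlapped. Which part of the transcript each probe set reads was not analysed here.

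Apoa4, an apolipoprotein of triglyceride-rich particles and HDL that responds to fasting and fat load in mice, measured 9.32, 9.34 and 9.12 in miR-143DOX and 9.16, 8.95 and 9.45 in control. Control replicate 3 was the highest and control replicate 2 the lowest of the 6, so the control mice spanned the miR-143DOX mice. The difference was 0.073 (95% interval -0.27 to 0.41) and turned to -0.047 without control replicate 2. Apoa5, for a protein that promotes triglyceride lipolysis, measured 10.72, 11.18 and 11.12 in miR-143DOX and 11.18, 10.98 and 11.17 in control. Here miR-143DOX replicate 1 lay alone at the low end, and the difference of -0.099 (95% interval -0.44 to 0.24) was 0.044 without it. The 6 probe sets of Apoa5 were split, 3 below 0 and 3 above 0.

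**Figure D3:**
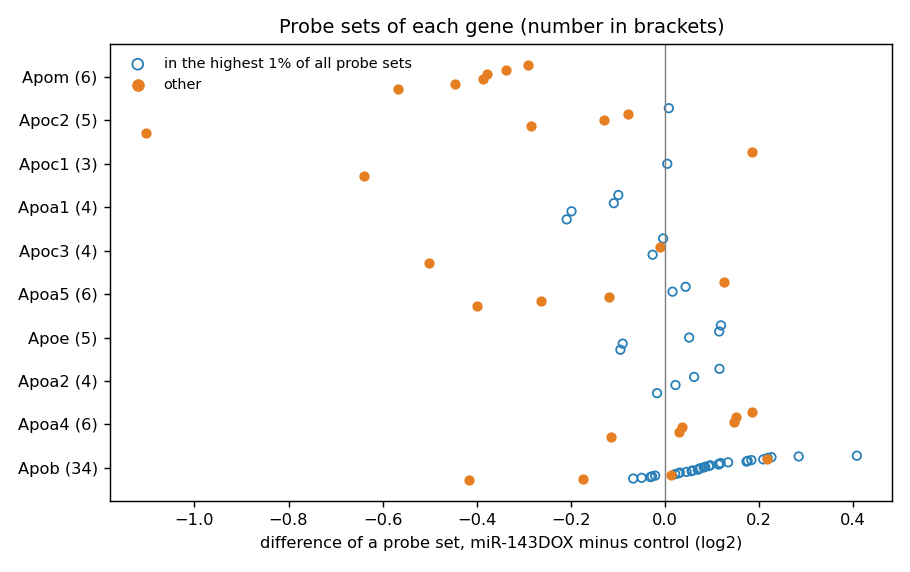
Difference of each probe set (log2, miR-143DOX minus control) for the 10 genes, with the number of probe sets in brackets. Open points are probe sets in the highest 1% of all on the array, and filled points are the others. The 6 of Apom, the 4 of Apoa1 and the 4 of Apoc3 all lie below 0. Single probe sets of Apoc2 (-1.1), Apoc1 (-0.64) and Apoc3 (-0.50) lie far below the rest of their gene.

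Apob, the gene of the structural protein of very-low-density lipoprotein, measured 13.06, 13.23 and 13.35 in miR-143DOX and 12.92, 13.19 and 13.30 in control. The groups overlapped over most of their range, with a difference of 0.078 (95% interval -0.25 to 0.40, 106% of control). Of its 34 probe sets 27 lay above 0 and 7 below, 2 were separate and higher, and none reached an unadjusted p under 0.05. Over all 234873 probe sets, 50.5% lay above 0, and 9.04% were separate between the groups in either direction. The difference of Apob was -0.032 without control replicate 1, the lowest array for this gene. Apoa2, for the second structural protein of HDL, measured 13.93, 14.03 and 13.99 in miR-143DOX and 13.97, 13.93 and 13.92 in control. Its difference was 0.046 (95% interval -0.23 to 0.32), and miR-143DOX replicate 1 lay below control replicate 1.

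**Figure D4:**
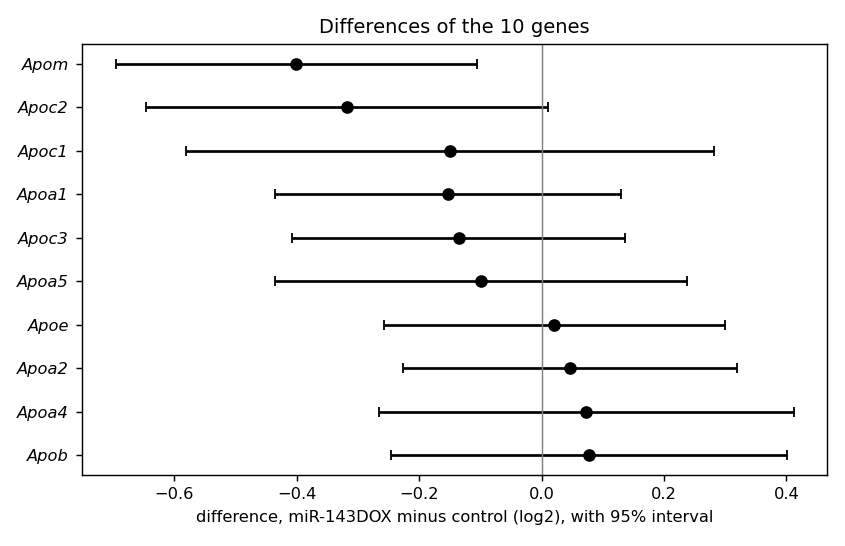
Difference in log2 intensity (miR-143DOX minus control) of the 10 genes with the 95% interval of the limma fit. The interval of Apom, -0.70 to -0.11, is the only one of the 10 that leaves out 0.

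Many of these transcripts were read near the top of the array's range. Of the 77 probe sets of the members, 49 lay in the highest 1% of all probe sets, among them all of those of Apoa1, Apoa2 and Apoe and 30 of the 34 of Apob. The differences of these 49 ran from -0.21 to 0.41 with a median size of 0.083, and those of the other 28 from -1.1 to 0.22 with a median size of 0.20. Whether bright probe sets understate a change was not tested. All 6 probe sets of Apom lay below the highest 1%.

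Across arrays, miR-143DOX replicate 1 was the lowest of its group for 6 of the 10 genes. The mean deviation of the 10 genes from their own 6-array means was -0.098, -0.044 and -0.014 in miR-143DOX replicates 1, 2 and 3, and 0.029, 0.028 and 0.098 in control replicates 1, 2 and 3. By the size of these shifts miR-143DOX replicate 1 and control replicate 3 stood farthest apart. Genes outside the list whose centred profile over the 6 arrays was nearest to this mean were Lman2, for a cargo receptor of the secretory pathway (root mean square difference 0.0126), H2-D1, a class I major histocompatibility gene (0.0188), Nupl1 (0.0256), Esyt1 (0.0256) and Chfr (0.026). Among the members themselves Apoa1 (0.0607) and Apoc3 (0.0618) were nearest to the mean profile and Apoc1 (0.291) farthest.

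Other genes of lipoprotein metabolism were counted in 6 lists, which hold 130 tested genes besides the members. An unadjusted p under 0.05 was reached by 2 that lay higher and 3 that lay lower, 3.85% of the lists against 3.06% of all genes, and 0 passed 5% FDR in limma. Groups did not overlap for 12 of the 130, 4 higher and 8 lower, 9.23% against 7.13% of all genes. Below 0 lay 80 of the 130 (61.5%), with a median of -0.061, against 47.6% and a median of 0.0083 over all genes tested. The same 47.6% is the background for the counts below 0 in each list.

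Among 16 further apolipoprotein genes and HDL-bound proteins, 11 lay below 0 (median -0.08) and 1 reached an unadjusted p under 0.05. That was Saa4, a serum amyloid A gene made constitutively in the liver, at 10.55, 10.47 and 11.17 in miR-143DOX and 11.11, 11.33 and 11.41 in control. Of the miR-143DOX mice, 2 lay below all control mice and 1 among them, at a difference of -0.55 (95% interval -0.96 to -0.14). Apol9a measured 7.61, 7.23 and 8.30 in miR-143DOX and 8.76, 7.80 and 8.15 in control from 1 probe set, a difference of -0.52 (95% interval -1.12 to 0.077). Leaving out control replicate 1 gave -0.26, leaving out miR-143DOX replicate 2 gave -0.28, and leaving out miR-143DOX replicate 3 gave -0.81.

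Of 26 genes for assembly and secretion, 12 lay above and 14 below 0. Mttp, the transfer protein that loads lipid onto apolipoprotein B, measured 10.97, 11.13 and 11.22 in miR-143DOX and 10.91, 11.04 and 11.22 in control. The groups overlapped, with a difference of 0.051 (95% interval -0.26 to 0.36). Hspa5, the main chaperone of the endoplasmic reticulum, was the single gene of this list at an unadjusted p under 0.05, at 11.17, 10.76 and 10.99 in miR-143DOX and 11.13, 11.30 and 11.66 in control. It overlapped, with a difference of -0.39 (standard error 0.17), which was -0.24 without control replicate 3. Cidec, a lipid droplet protein, was higher in every miR-143DOX mouse, at 6.32, 6.25 and 6.15 in miR-143DOX against 6.08, 5.94 and 5.90 in control, with a difference of 0.27 (95% interval -0.019 to 0.55). Its probe sets gave 0.086 when summarised by their median and 0.57 by the brightest, and Hspa5 was at -0.25 with the brightest.

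None of 15 genes of lipases and their inhibitors reached an unadjusted p under 0.05, and 10 lay below 0. Angptl4, an inhibitor of lipoprotein lipase, differed by -0.41 (standard error 0.22), with 9.63, 9.09 and 8.91 in miR-143DOX and 9.99, 9.20 and 9.68 in control. Pnpla3, a lipid droplet acyl hydrolase, differed by 0.45 (standard error 0.25), and the hepatic lipase gene Lipc by -0.081 (0.13). The 3 genes overlapped between the groups. Pnpla3 stood at 0.15 without miR-143DOX replicate 1 and Angptl4 at -0.23 without control replicate 1, the values nearest to 0 with single arrays left out. With the brightest probe set Pnpla3 was at 0.18, and with array weights Angptl4 was at -0.16. Angptl4 was at -0.26 without miR-143DOX replicate 3, and at -0.62 without miR-143DOX replicate 1 or control replicate 2.

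Receptors for lipoproteins numbered 23, of which 15 lay below 0. The HDL receptor gene Scarb1 was lower in every miR-143DOX mouse, at 9.57, 9.50 and 9.60 in miR-143DOX and 9.99, 9.78 and 9.73 in control. Its difference was -0.28 with a standard error of 0.13 (95% interval -0.57 to 0.012). Scarb1 lay below 0 in 17 of 17 other settings and reached an unadjusted limma p under 0.05 in 0 of them. The scavenger receptor and fatty acid transporter gene Cd36 measured 10.34, 9.56 and 8.76 in miR-143DOX and 8.10, 9.0 and 8.47 in control, an overlap with a difference of 1.03 (95% interval 0.30 to 1.75). Without miR-143DOX replicate 1 it was 0.63. For cholesterol efflux and HDL, 13 of 19 genes lay below 0 with a median of -0.081. This list shares Scarb1, Lcat, Pltp, Pon1, Pon3, Lipc and Lipg with other lists, so their counts are not independent. Of these, 3 were lower without overlap, 15.8% of the list against 3.73% of all genes tested. That share was the highest of the 6 lists. Among the 16 further apolipoprotein genes and HDL-bound proteins, 0 were without overlap, and of the 26 assembly genes 2 were higher and 2 lower. Lower without overlap were 1 of 15 lipase genes, 2 of 23 receptors and 1 of 40 transcription factors, of which 2 were higher. Besides Scarb1, the gene of the efflux list nearest by p was Amn, an endocytic partner of the receptor cubilin, at 0.29 (standard error 0.15). It was at 0.075 with the median over probe sets, 0.50 with the brightest and 0.16 without probe sets in the lowest 25%.

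Transcription factors and coregulators of apolipoprotein genes were the largest list, with 40 genes, of which 18 lay above and 22 below 0. Hnf4a, the nuclear receptor that drives many apolipoprotein genes, measured 10.90, 10.88 and 10.67 in miR-143DOX and 10.50, 10.92 and 10.80 in control, an overlap with a difference of 0.076 (95% interval -0.25 to 0.40). The bile acid receptor gene Nr1h4 differed by -0.017, Ppara, for the fasting-activated fatty acid receptor, by 0.078, and Creb3l3, for a membrane-bound factor that drives Apoa4 in mice, by -0.087. Each of these 4 turned its sign without at least 1 of the arrays. Pparg, for the adipogenic nuclear receptor, was higher in every miR-143DOX mouse, at 6.62, 6.47 and 6.69 in miR-143DOX against 6.41, 6.22 and 5.93 in control (difference 0.41, standard error 0.15). The median of its probe sets gave Pparg a difference of 0.19 (limma unadjusted p = 0.347), and the brightest gave 0.096 (limma unadjusted p = 0.74). Leaving out control replicate 3 gave 0.28 (limma unadjusted p = 0.107). Ppargc1a, for a coactivator of fasting genes, overlapped and differed by -0.54 (standard error 0.22), or by -0.28 without control replicate 1 and -0.18 with the brightest probe set.

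**Figure D5:**
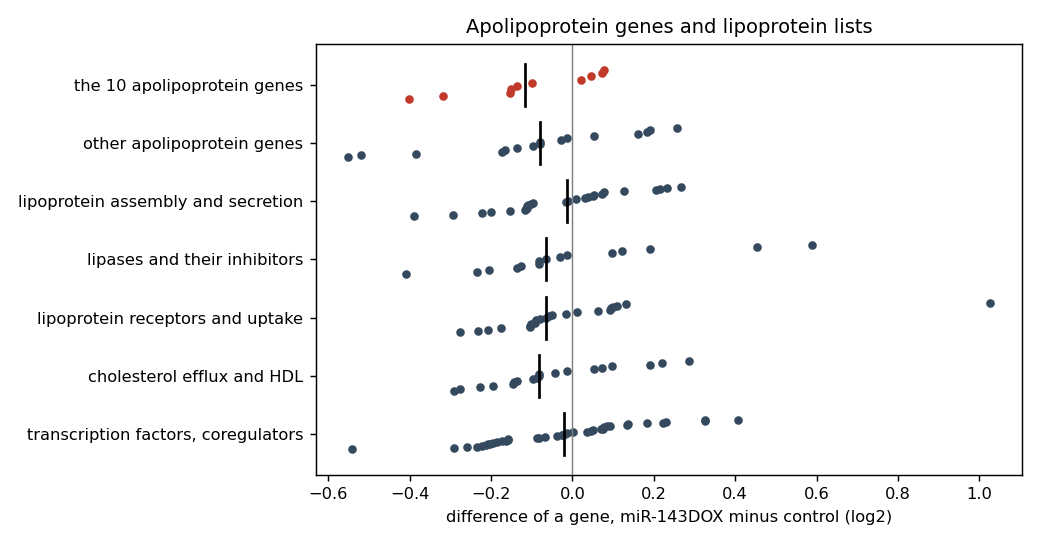
Difference in log2 intensity (miR-143DOX minus control) of each tested gene, for the 10 apolipoprotein genes (top) and 6 lists of other lipoprotein genes, with a black line at the median of each list. The median is -0.12 for the 10 genes and -0.081 to -0.013 for the 6 lists. Every list spreads to both sides of 0, and Cd36, at 1.03, is the point farthest to the right.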

How the data were processed

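The deposited table holds 1 value per probe set and array on a log scale whose base is unstated; its span led to reading it as log2 intensity. The submitters' processing notes name Partek without a version, and the background correction and normalization the authors applied to the log2 values are not stated. The labels' protocols name biotinylated cDNA of total RNA. Because upper percentiles of the arrays differed by over 0.1, the 6 arrays were quantile normalized. Of 234873 probe sets, 212097 named 1 gene in the platform annotation and were averaged per gene. The lowest 25% of the 20416 genes by mean level were left out, which left 15312. The test was limma's moderated, two-sided one (version 3.58.1, R 4.3.3) with group as the single term and Benjamini-Hochberg adjustment over all genes. The steps were also run on simulated data, with planted differences that were all larger than that of any member. That run therefore does not show how well differences of the members' size are found. No detection call was used. The number of arrays limits the precision, and the median moderated SD of a gene was 0.183.

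The members and lists were chosen with earlier results of these data known. Of 267 listed genes, members included, 241 were found by symbol, 8 by an older symbol, and 18 were not used. Named genes were all members, up to 4 genes per list at an unadjusted p under 0.05 (the 2 smallest p where fewer than 2 reached it), Mttp, Apoc4 and a fixed set of regulators and lipases, and the 5 genes nearest to the mean profile. Alternatives were other scalings, filters, summaries of probe sets, variance models, a replicate block, and leaving out arrays singly. Leaving out each probe set of a member was added after seeing the data.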

Additional observations from a re-analysis of the deposited data

How the results depend on the processing

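No gene passed 5% FDR under any of 17 other settings (298 genes without miR-143DOX replicate 2 to 1128 without miR-143DOX replicate 3 at an unadjusted p under 0.05, 1021 with array weights, lowest adjusted p = 0.061). Apom lay lower in every miR-143DOX mouse in 17 of 17, with an unadjusted p under 0.05 in 14. It was 0.0604 with the median over probe sets, 0.051 with the brightest probe set and 0.0608 without miR-143DOX replicate 1. Members without overlap numbered 2 on the values as deposited, 2 after median centring of the arrays, 1 with the brightest probe set and 4 to 6 with single arrays left out. Over all genes the groups did not overlap for 7.14%, 6.86% and 7.26% in the first 3 settings, and for 13% to 26.4% with single arrays left out, so the last counts stand against a higher background; they include Apoa2, higher, without miR-143DOX replicate 1 or control replicate 1. Members at an unadjusted p under 0.05 numbered 0 with the median over probe sets or the brightest probe set, 2 without probe sets in the highest 1%, and 1 to 2 with single arrays left out. Over all genes such a p was reached by 561 of 15312 with the median, 455 of 15312 with the brightest and 483 of 15289 without the highest 1%. With single arrays left out, 298 to 1128 of 15312 reached it. The members' median was 0.025 with the median over probe sets, 0.02 with the brightest, -0.039 without probe sets in the lowest 25%, -0.227 without those in the highest 1% (7 members), and -0.114 to -0.033 with single arrays left out, nearest to 0 without miR-143DOX replicate 1. Genes of the 6 lists at an unadjusted p under 0.05 numbered 3 without probe sets in the lowest 25%, 10 with array weights, and 2 to 11 with single arrays left out. They were fewest without miR-143DOX replicate 2 and most without control replicate 1. The counts over all genes moved too. They were 372 of 13742 without the lowest 25% and 1021 of 15312 with array weights. Without miR-143DOX replicate 2 they were 298 of 15312, and without control replicate 1 they were 663 of 15312.

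Signs turned in 15 of 167 member values: Apoe to -0.008 on the deposited values, -0.008 with centred arrays and -0.003 with array weights, Apoa5 to 0.004 with the median over probe sets and 0.044 with the brightest, Apoc1 to 0.184 with the median, 0.005 with the brightest and 0.095 without the lowest 25%, Apoc2 to 0.009 with the brightest, and Apob to -0.09 without the highest 1%. With single arrays left out Apoe ran from -0.024 to 0.058, Apoc1 from -0.38 to -0.002, Apoa5 from -0.19 to 0.044, Apob from -0.032 to 0.16, Apoa4 from -0.047 to 0.20, Mttp from -0.025 to 0.14, Hnf4a from -0.045 to 0.17, Nr1h4 from -0.20 to 0.20, Ppara from -0.059 to 0.30 and Creb3l3 from -0.25 to 0.072. With the median over probe sets Mttp was -0.007, Hnf4a -0.093 and Creb3l3 0.037; Creb3l3 was 0.019 with array weights and Nr1h4 0.228 with the brightest probe set. Without single probe sets Apoc1 was 0.095 and Apoe -0.004 or -0.003. The cause of these changes was not tested. With the replicate number as a block 10 list genes and 1 member reached an unadjusted p under 0.05 and 734 of all genes; deviations of same-numbered mice correlated at 0.107, 0.047 and 0.296, which missed the level set for treating the numbers as pairs (all over 0.1), and the labels give no pairing; a shared day or litter was not tested.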
